A study of Rattus norvegicus with 6 samples.

Results

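Adipoq, Fabp4 and Pparg are 3 genes best known from fat cells, and their RNA was followed here in rat femur after chronic sleep deprivation (CSD). They were chosen by Ensembl gene ID, ENSRNOG00000001821 for Adipoq, ENSRNOG00000010805 for Fabp4 and ENSRNOG00000008839 for Pparg, and are 3 of the 32545 gene rows in the count table. All 3 IDs were present, and all 3 had enough reads to be tested, as did 13431 genes in all. The symbols are those given with the IDs when the genes were chosen. The pairing of ID and symbol could not be checked, because the rat RefSeq gene table used here holds all 3 symbols but matched 0 of the 32545 IDs.

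Polyadenylated RNA from bone tissue of the femur of Wistar rats, an outbred laboratory strain, was sequenced. The control group has 3 libraries, labelled 12, 13 and 14 weeks of age, and the group under chronic sleep deprivation has 3, labelled 15, 16 and 17 weeks. The series description gives 12 weeks for both groups. Labelled age and treatment cannot be told apart, since the labelled ages do not overlap. No label ties a library to an animal, so a p-value here measures the spread between libraries, part of which may be technical. The sex of the rats, the way sleep was prevented and whether marrow stayed in the bone are not stated in the labels. The series title names PI3K/AKT signalling, through which insulin acts on fat cells among others, and the formation of bone.

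Bone marrow holds adipocytes that arise from stromal cells able to form osteoblasts as well. PPARγ, the nuclear receptor encoded by Pparg, drives such a cell towards fat, and it binds DNA with a retinoid X receptor as partner. Fabp4 and Adipoq are among its target genes in adipocytes. Fabp4 encodes a carrier that binds fatty acids inside the cell, and Adipoq encodes adiponectin, a hormone that fat cells secrete into the blood. Adipoq is the most specific of the 3 to adipocytes. Fabp4 is made by macrophages and capillary endothelium too, and Pparg by macrophages and osteoclast precursors.

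Pparg has more than 1 start site, and the count table adds the reads from all of them. Promoter windows were therefore read for Adipoq and Pparg from a RefSeq table of build GRCr8, in which 2 of the 3 symbols matched. Each window below holds the 250 bases before a start site, 5′ to 3′ on the gene's strand. The 3 windows lie at chr11:91240170-91240419 on the minus strand for Adipoq, chr4:150096808-150097057 on the plus strand for the upstream Pparg start and chr4:150154522-150154771 on the plus strand for the downstream one. The counts were made on build rn6, so these positions are not those of the counted gene models. Capitals mark matches, on either strand, to CCAAT (the CCAAT box) or to TTGCNNAA (a C/EBP-like motif, C/EBP factors being partners of PPARγ in fat cell formation).
Adipoq: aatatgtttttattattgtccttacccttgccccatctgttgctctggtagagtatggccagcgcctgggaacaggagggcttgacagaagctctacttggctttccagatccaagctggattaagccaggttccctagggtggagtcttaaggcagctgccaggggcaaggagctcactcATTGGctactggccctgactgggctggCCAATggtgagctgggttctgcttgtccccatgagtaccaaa
Pparg upstream start: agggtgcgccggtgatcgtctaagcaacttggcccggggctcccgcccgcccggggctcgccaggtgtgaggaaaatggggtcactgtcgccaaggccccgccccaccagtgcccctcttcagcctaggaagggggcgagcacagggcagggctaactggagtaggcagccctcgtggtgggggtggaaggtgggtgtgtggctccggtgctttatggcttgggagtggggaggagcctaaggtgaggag
Pparg downstream start: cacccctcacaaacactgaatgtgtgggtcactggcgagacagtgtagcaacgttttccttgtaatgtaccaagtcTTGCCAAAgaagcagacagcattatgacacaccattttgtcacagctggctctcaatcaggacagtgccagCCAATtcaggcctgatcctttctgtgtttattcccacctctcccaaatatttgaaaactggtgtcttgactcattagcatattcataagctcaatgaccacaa
The Adipoq window held 2 matches to CCAAT, which begin 69 and 42 bases before the start, the first of them on the opposite strand. The downstream Pparg window held 1 match to CCAAT, 103 bases before the start, and 1 to TTGCNNAA, 174 bases before it. The upstream Pparg window held neither. AGGTCA, the half-site of nuclear receptors, was searched as well on both strands, and these letters are in none of the 3 windows. Of all 33469 windows of this length in the table, 34.0% held CCAAT, 9.22% TTGCNNAA and 14.1% AGGTCA. The motifs were chosen after the sequences had been read, and a match is a description of letters only.

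Across the table, libraries held 8366443 to 9572898 reads in genes, and 1 read corresponded to 0.106 to 0.118 CPM (gene counts scaled to a common library size with TMM factors, which adjust for differences in RNA composition). CSD 1 lay inside this range of depth, with 8578506 reads. CPM are not corrected for gene length, so levels are compared here between libraries and not between the 3 genes. In bulk RNA, fewer fat cells and less RNA per fat cell cannot be told apart. Intervals on a library's value are exact Poisson intervals at 95% and cover counting error only.

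Adipoq, the hormone gene, was high in 1 CSD library and low in the other 2. In the control libraries 1, 2 and 3 it had 47, 17 and 17 reads, or 5.28, 1.80 and 1.86 CPM. In CSD libraries 1, 2 and 3 it had 255, 13 and 5 reads, or 29.7, 1.49 and 0.589 CPM. CSD 1 stood 5.63-fold above the highest other library, which was control 1, and 28.6-fold above the mean of CSD 2 and CSD 3. CSD 2 and CSD 3 were both below all 3 controls, so the groups overlapped, with CSD holding both the highest and the lowest values. The low values rest on few reads: the interval of CSD 2 (0.794 to 2.55 CPM) overlapped those of control 2 (1.05 to 2.88) and control 3 (1.08 to 2.98). The interval of CSD 3 was 0.191 to 1.37 CPM, which also reached into both of them, and lay below that of control 1 (3.88 to 7.02).

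The group means of Adipoq were 2.98 ± 1.99 CPM (SD, n = 3) in controls and 10.6 ± 16.6 CPM (SD, n = 3) in CSD, and 93.5% of the summed CPM in CSD came from CSD 1. The log2 fold change, CSD minus control, was 1.83 (SE 1.19, 95% interval -0.90 to 4.56), and edgeR's quasi-likelihood test gave an unadjusted p of 0.162 and an adjusted p of 0.539. The medians lay the other way, at 1.86 CPM in controls and 1.49 CPM in CSD. Without CSD 1 the log2 fold change was -1.51 (edgeR, adjusted p = 0.290), and without control 1 it was 2.52 (adjusted p = 0.470). The difference between mean log2 CPM, in which 1 high library weighs less, was 0.28 (exact two-sided permutation test, p = 1). DESeq2 gave a log2 fold change of 1.83 and no p-value for Adipoq: Cook's distance, its measure of how far 1 library pulls a gene's fit, reached 23.9 in CSD 1, above its limit of 18.0. A difference in Adipoq between the groups was thus not shown, and its direction turned on 1 library.

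**Figure D1:**
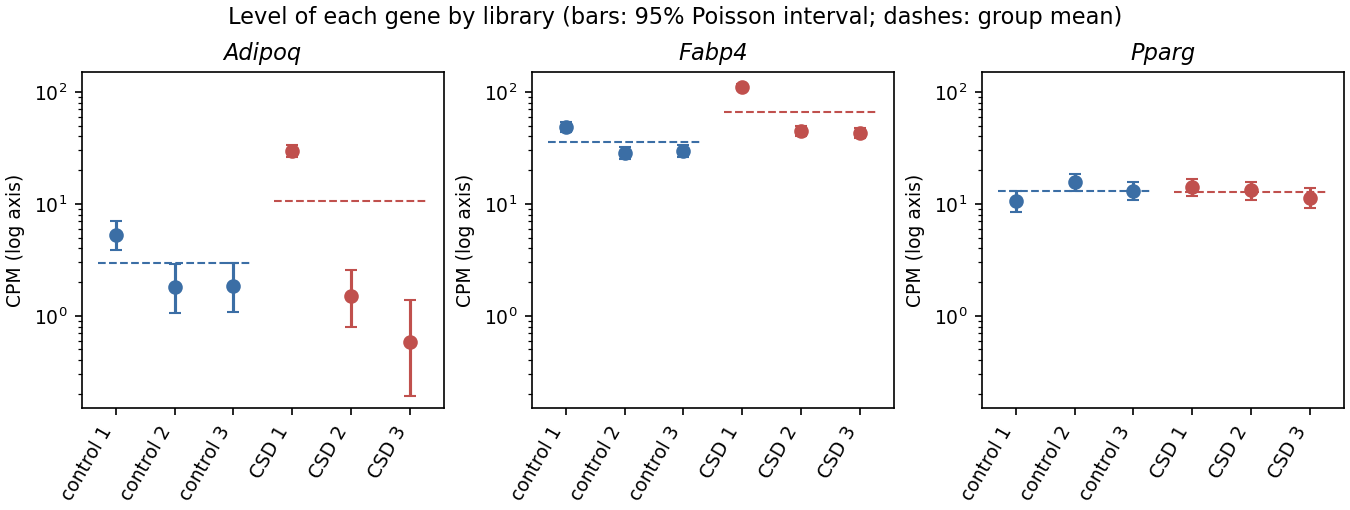
Level of Adipoq, Fabp4 and Pparg in each library, in CPM on a log axis, with controls in blue and CSD in red; bars are 95% Poisson intervals of the read count and dashed lines are group means. CSD 1 is at 29.7 CPM for Adipoq and 111 CPM for Fabp4, above every other library, while its Pparg level of 14.1 CPM is within the range of the controls.

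Fabp4, the fatty acid carrier, was also highest in CSD 1, over a narrower range. Controls 1, 2 and 3 had 433, 269 and 271 reads, or 48.6, 28.5 and 29.7 CPM. CSD 1, 2 and 3 had 949, 392 and 363 reads, or 111, 45.0 and 42.7 CPM. All 3 CSD libraries lay above controls 2 and 3, but control 1 lay above CSD 2 and CSD 3, so the groups overlapped. CSD 1 was 2.27-fold above the highest other library, again control 1. The intervals of CSD 2 (40.6 to 49.6 CPM) and CSD 3 (38.5 to 47.4) were above those of control 2 (25.2 to 32.1) and control 3 (26.3 to 33.4) and overlapped that of control 1 (44.1 to 53.4).

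Fabp4 averaged 35.6 ± 11.3 CPM (SD, n = 3) in controls and 66.1 ± 38.5 CPM (SD, n = 3) in CSD. The log2 fold change was 0.89 (SE 0.38, 95% interval 0.02 to 1.77), with an unadjusted p of 0.0467 and an adjusted p of 0.394 in edgeR's quasi-likelihood test, so Fabp4 did not pass the threshold of 0.05 on adjusted p. It ranked 1592 among 13431 genes by p. Without CSD 1 the log2 fold change was 0.29 (edgeR, unadjusted p = 0.261, adjusted p = 0.532). The sign was positive in all 16 alternatives tried, and none of the 15 refits across genes gave an adjusted p under 0.05 (range 0.172 to 0.709 with edgeR, DESeq2 or limma-voom). The exact two-sided permutation test on mean log2 CPM gave p = 0.3 (0.9 after Benjamini-Hochberg adjustment over the 3 genes). The smallest p that 3 libraries against 3 can give is 0.1.

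Pparg, the receptor gene, had nearly the same level in both groups. Controls 1, 2 and 3 had 94, 147 and 120 reads, or 10.6, 15.6 and 13.1 CPM. CSD 1, 2 and 3 had 121, 115 and 96 reads, or 14.1, 13.2 and 11.3 CPM. All 3 CSD values lay between the lowest and the highest control. Means were 13.1 ± 2.51 CPM (SD, n = 3) in controls and 12.9 ± 1.43 CPM (SD, n = 3) in CSD.

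The log2 fold change of Pparg was -0.03 (SE 0.20; edgeR, adjusted p = 0.969). Its 95% interval ran from -0.49 to 0.44, that is, from 1.41-fold lower to 1.36-fold higher in CSD, and smaller changes in either direction were not resolved. The sign turned without control 2 (0.12) and without CSD 3 (0.06). Reads from the upstream and downstream starts were counted together, so a shift between Pparg isoforms would not appear in these values.

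Over all 13431 tested genes, edgeR called 0 (0%) at an adjusted p under 0.05, and 0 of the 3 fat genes were called. DESeq2, fitted to the 19514 genes with a read, called 298. Fabp4 and Pparg were not among these, and Adipoq had no p-value in DESeq2 and so could not be called. With limma-voom, 0 genes were called. An unadjusted p under 0.05 was reached by 1679 genes, or 12.5% of those tested, and by 1 of the 3 fat genes, Fabp4. Over the 15 refits the unadjusted p of Fabp4 fell on both sides of 0.05. It ran from 0.00235 (edgeR with the replicate block) to 0.261 (edgeR without CSD 1). The groups did not overlap for 16.8% of tested genes, and they overlapped for all 3 fat genes. Their median log2 fold change was 0.89, that of Fabp4, beside 0.00 for all tested genes. With 3 genes these counts place the members against the background and no more.

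**Figure D2:**
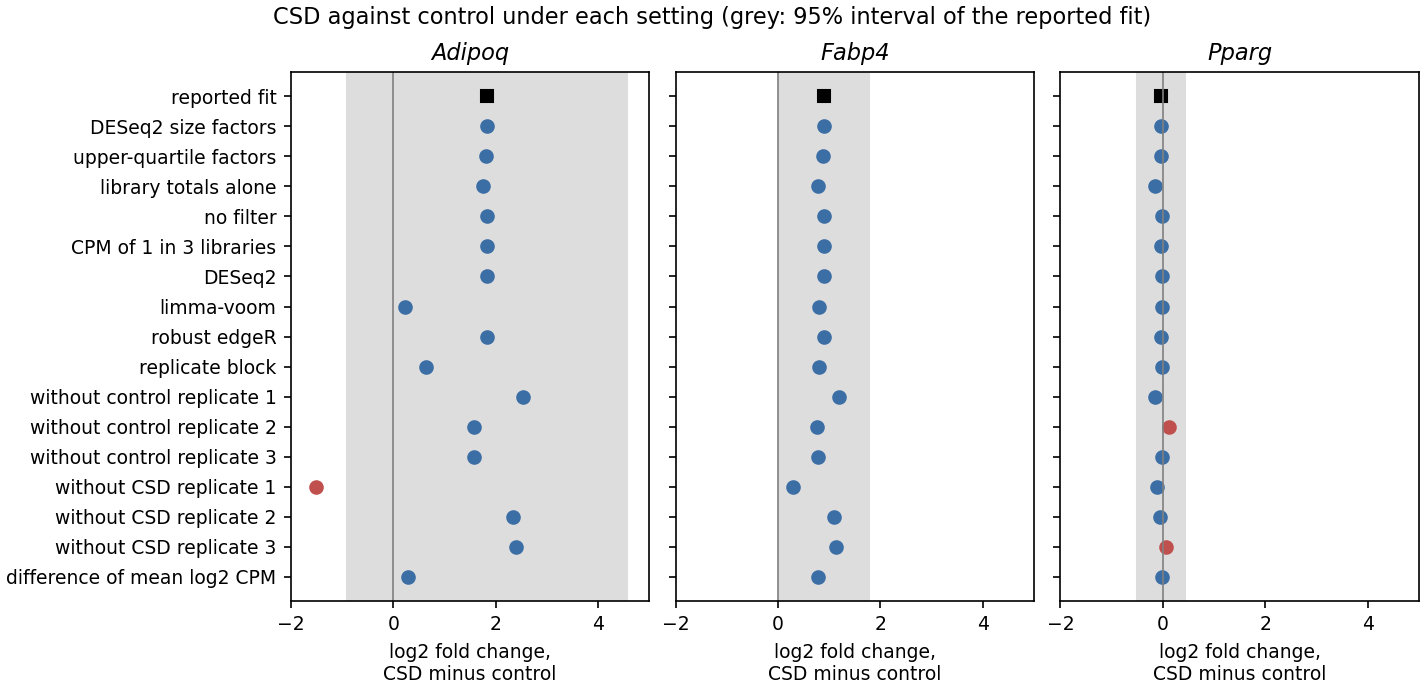
Log2 fold change, CSD minus control, of each gene in the reported edgeR fit (black square) and under each alternative (circles; red where the sign differs from the reported fit), with the 95% interval of the reported fit in grey. Adipoq moves from -1.51 without CSD replicate 1 to 2.52 without control replicate 1, Fabp4 stays between 0.29 and 1.18, and Pparg stays between -0.16 and 0.12.

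The spread within groups differed widely among the 3 genes. Among CSD libraries, the highest Adipoq level was 50.5-fold the lowest, the highest Fabp4 level 2.59-fold and the highest Pparg level 1.25-fold. For Adipoq the SD of log2 CPM in CSD was 2.75, and only 7 of the 13431 tested genes had a larger one. For Fabp4 it was 0.77, exceeded by 5.74% of tested genes, and for Pparg 0.16, exceeded by 64.6%. In controls the SD was 0.82 for Adipoq, 0.43 for Fabp4 and 0.28 for Pparg, exceeded by 4.54%, 18.6% and 36.0% of tested genes. Adipoq was among the most variable genes of the CSD libraries, and the spread of Pparg was unremarkable in either group. These ranks are over tested genes of all levels, and only 11.9% of them had a lower mean log2 CPM than Adipoq. The lowest Adipoq value in CSD rests on 5 reads, so part of its spread may be counting error.

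Few genes had as large an excess in 1 library as Adipoq had in CSD 1. Its 5.63-fold ratio of CSD 1 to the highest other library was exceeded in CSD 1 by 3 of 13431 tested genes. In the other libraries, measured the same way, it was exceeded by 4 genes in control 3 and 2 in CSD 3. It was exceeded by 1 gene in control 2 and by 0 in control 1 and CSD 2. These counts are too small to tell whether CSD 1 stood apart at this ratio. A ratio above the 2.27-fold of Fabp4 was found in CSD 1 for 50 genes (0.372%). The same ratio was exceeded for 5 to 22 genes in each of the other 5 libraries, so CSD 1 had the most genes above it. Pparg, at 0.905 of the highest other library, showed no excess in CSD 1.

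**Figure D3:**
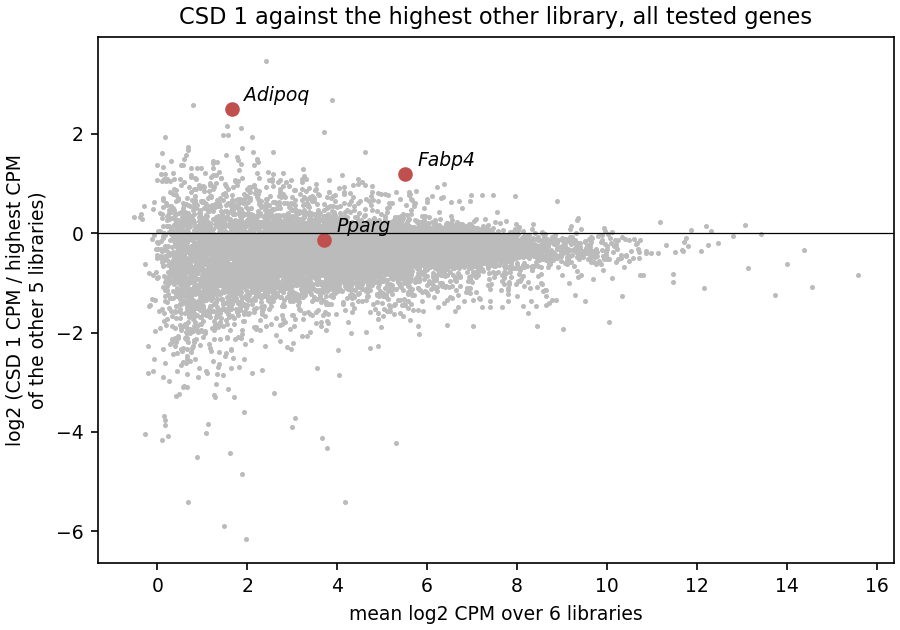
Each grey point is 1 of the 13431 tested genes, placed by its mean log2 CPM over 6 libraries and by the log2 ratio of its CPM in CSD 1 to the highest CPM among the other 5. Adipoq, at a 5.63-fold ratio, has 3 genes above it, Fabp4, at 2.27-fold, lies at the upper edge for its level, and Pparg lies just under the line of equal levels.

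Control 1 was the highest control for both Adipoq and Fabp4. It had 2.88-fold the mean of controls 2 and 3 for Adipoq and 1.67-fold for Fabp4. For Pparg it was the lowest control, at 0.735 of that mean. Among CSD libraries, CSD 1 was highest for all 3 genes, with Pparg at 14.1 CPM. Replicate 1 libraries were thus highest in both groups for the fat cell products, and in CSD only for Pparg. The 92 tested genes with a log2 fold change above 3, which were chosen by that fold, were also highest in these libraries: they took 0.113%, 0.0497% and 0.00830% of gene reads in controls 1, 2 and 3 and 2.29%, 1.21% and 0.413% in CSD 1, 2 and 3. None of the 92 reached the ratio of CSD 1 to the highest other library seen for Adipoq. The part of these genes, or of their source, in the levels of Adipoq and Fabp4 was not tested.

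Ratios between the genes within a library do not depend on library scaling. Fabp4 reads per Adipoq read were 9.21, 15.8 and 15.9 in controls 1, 2 and 3 and 3.72, 30.2 and 72.6 in CSD 1, 2 and 3. The controls lay inside the range of the CSD libraries, whose lowest value was CSD 1. With 0.5 added to each count, the log2 ratio averaged 3.70 ± 0.44 over the controls and 4.27 ± 2.14 over the CSD libraries (SD, n = 3; exact two-sided permutation test, p = 0.7, adjusted p = 1 over 3 ratios). The difference of 0.57 became 1.76 without CSD 1 and -0.32 without CSD 3.

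Pparg reads per Adipoq read were 2.00, 8.65 and 7.06 in controls and 0.475, 8.85 and 19.2 in CSD. The lowest of these ratios was that of CSD 1 and the highest that of CSD 3. The log2 ratio averaged 2.28 ± 1.13 over the controls and 2.05 ± 2.76 over the CSD libraries (SD, n = 3; exact two-sided permutation test, p = 1, adjusted p = 1). The difference of -0.23 became 1.33 without CSD 1, 0.16 without control 2 and 0.02 without control 3.

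Fabp4 reads per Pparg read were 4.61, 1.83 and 2.26 in controls and 7.84, 3.41 and 3.78 in CSD. As with Fabp4 alone, the CSD values lay above controls 2 and 3, and control 1 lay above CSD 2 and CSD 3. The log2 ratio averaged 1.41 ± 0.70 over the controls and 2.21 ± 0.65 over the CSD libraries (SD, n = 3; exact two-sided permutation test, p = 0.3, adjusted p = 0.9 over 3 ratios). This difference of 0.80 was the largest of the 3 ratios, and it became 0.43 without CSD 1, 0.53 without control 2 and 1.19 without control 1. This ratio ranged 4.28-fold over the 6 libraries, against 17.8-fold for Fabp4 to Adipoq and 36.9-fold for Pparg to Adipoq on the log2 scale with 0.5 added. Most of the variation among the 3 genes thus lay in Adipoq. Both ratios with Adipoq were highest in CSD 3, where Adipoq had 5 reads, so part of their range may be counting error.

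**Figure D4:**
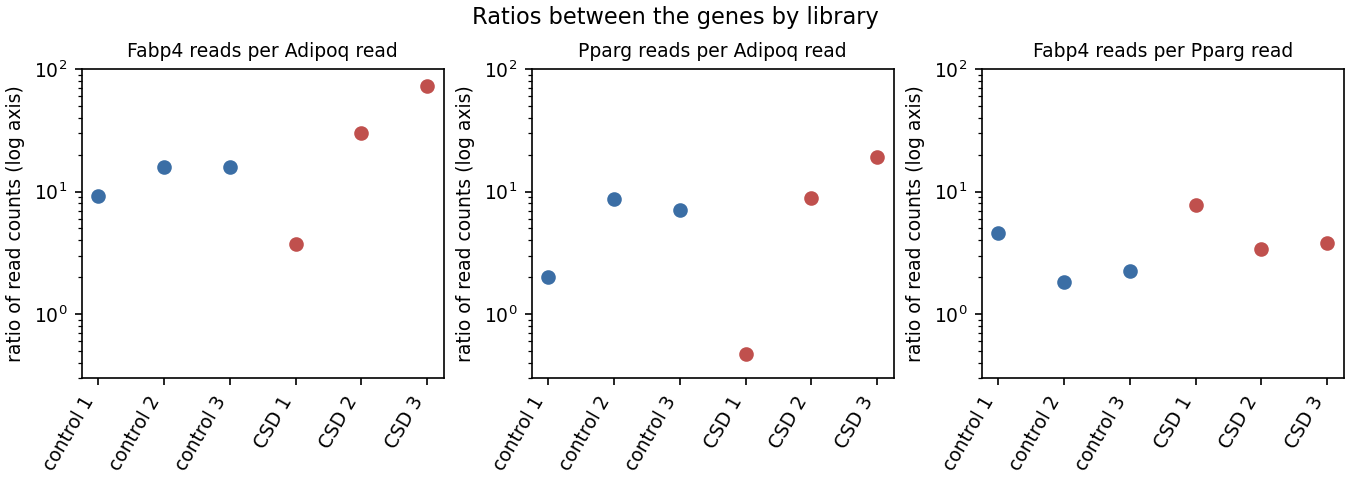
Ratios of read counts between the 3 genes in each library on log axes, controls in blue and CSD in red. CSD 1 has the lowest Fabp4 to Adipoq ratio (3.72) and the lowest Pparg to Adipoq ratio (0.475), and CSD 3 the highest of both (72.6 and 19.2).

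Over the 6 libraries, log2 CPM of Fabp4 and Adipoq correlated at Pearson's r = 0.81 and Spearman's rho = 0.54. Without CSD 1 the values over the other 5 libraries were 0.15 and 0.20, and without CSD 1 and control 1, the 2 libraries farthest from the median of Adipoq, r was -0.66, so the relation rested on those libraries. Pparg and Adipoq correlated at r = 0.18 and rho = 0.09; r was -0.20 without CSD 1 and 0.82 without both CSD 1 and control 1. Fabp4 and Pparg correlated at r = -0.06 and rho = -0.26; r was -0.80 (rho = -0.70) without CSD 1 and 0.51 without controls 1 and 2, the libraries farthest from the median of Pparg. The values of all 3 pairs therefore depended on 1 or 2 libraries. Levels in 1 library share its depth and its tissue sample, and these values describe 6 libraries only.

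The tested gene most like Adipoq in pattern was ENSRNOG00000009085, with r = 0.99 over 6 libraries. It had 12.5, 10.4 and 9.31 CPM in controls and 16.3, 9.52 and 8.36 CPM in CSD, a far smaller range than that of Adipoq. The gene most like Fabp4 was ENSRNOG00000013172 (r = 0.99), with 19.5, 16.5 and 17.1 CPM in controls and 26.3, 18.8 and 19.7 CPM in CSD. The gene most like Pparg was ENSRNOG00000008452 (r = 0.99), with 79.7, 95.2 and 86.8 CPM in controls and 91.4, 87.3 and 80.1 CPM in CSD. Over 6 libraries many genes reach a high r: 15 genes had r above 0.95 with Adipoq, 20 with Fabp4 and 30 with Pparg. Their symbols are not given here, as the IDs were matched to no name.

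Other fat cell genes, adiponectin receptors, adipogenic regulators and markers of macrophages and endothelium, the other cell types that make Fabp4, were not analysed here for the same reason. Whether another fat gene followed Adipoq in CSD 1 was therefore not tested.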

How the data were processed

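The values are raw counts of reads by gene in the 6 libraries, as the authors deposited them, and were used unchanged. HISAT2 2.2.1, HTSeq 0.12.4 and build rn6 are named per the submitters' processing notes; what each did, the annotation and whether counting used strand are not stated there. Reads of genes that overlap, or lie antisense, may therefore be mixed. The 5 closing rows that name no gene held 61.8% to 63.8% of a library's reads and stayed out of library sizes and tests.

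Genes were filtered with edgeR's filterByExpr at its defaults and scaled with TMM. The quasi-likelihood test of edgeR 4.0.16 (R 4.3.3, two-sided, no covariate) was fitted to all filtered genes, with Benjamini-Hochberg adjustment over all of them and a threshold of 0.05. SE was taken as the size of the log2 fold change over the root of F, and 95% intervals use the fit's degrees of freedom. Log2 CPM have a prior count of 2. Values per library and ratios (0.5 added to each count) were compared by exact two-sided permutation tests. The scripts were tested on simulated data.

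The genes and lists were chosen with earlier results of these data known. Genes described in full are the 3 members and, per member, the gene with the highest Pearson r; the rule allowed 2 per member, and this was limited because IDs have no names here. 6 pathway lists and 10 cell type lists were set by symbol and not tested, as no ID matched. Alternatives were 3 scalings, 2 filters, DESeq2 1.42.0, limma-voom (limma 3.58.1), robust edgeR, a block on the replicate number, and omission of each library. The permutation test on log2 CPM of each gene and the ratio of Fabp4 to Pparg were chosen after seeing the data.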

Additional observations from a re-analysis of the deposited data

How the results depend on the processing

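No setting tried gave an adjusted p under 0.05 for Adipoq, Fabp4 or Pparg, and DESeq2 gave none for Adipoq. Adipoq's log2 fold change of 1.83 stayed between 1.75 and 1.83 under other scalings, filters, DESeq2 and robust edgeR, and was 0.23 with limma-voom (adjusted p = 0.951), 0.64 with the replicate block (edgeR, adjusted p = 0.768) and -1.51 to 2.52 with 1 library left out. Pparg ran from -0.16 to 0.12 with 1 library left out. With 1 library left out, the difference in mean log2 ratio, CSD minus control, ran from -0.32 to 1.76 for Fabp4 to Adipoq. For Pparg to Adipoq this difference ran from -1.27 to 1.33. The number of genes called, 0, rose to 112 without a filter, 298 with DESeq2 and 104 with the replicate block, and ran from 0 to 230 with 1 library left out; the cause was not tested. The number with an unadjusted p under 0.05, 1679, ran from 870 to 2726 with 1 library left out. Libraries that share a number deviated from their group means with correlations of -0.01, -0.06 and 0.17, and only control 3 and CSD 3 correlated best with their own number, so the numbers were not taken as pairs. Fabp4 had a log2 fold change of 0.80 and an adjusted p of 0.172 with the block. Depth limits Adipoq most: 4 of 6 libraries held 5 to 17 reads.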
